A study of Rattus norvegicus with 6 samples.

Results

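Pancreatic acinar cells release digestive enzymes when secretagogues, the hormones and transmitters of a meal, raise their calcium, and 10 genes of this pathway were followed in rat pancreas. They were taken by gene name from a table of 34001 genes in 6 libraries: the receptor genes Cckar, Chrm3, Chrm1, Sctr and Vipr1, the calcium release channel genes Itpr2 and Itpr3, the calcium pump gene Atp2a2, and the calcium entry genes Orai1 and Stim1. The table had 9 of the 10 names, and Vipr1, a receptor for vasoactive intestinal peptide, was not analysed here. Of the 9, 8 passed a filter of a mean of at least 1 TPM, a transcript level corrected for gene length and for library total. Chrm1 did not pass.

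The libraries came from 6 Sprague-Dawley rats, 2 in each of 3 groups, killed 24 h after surgery. Control rats had a laparotomy in which the pancreas was moved with cotton swabs, then 1 ml of saline by tail vein. TP (traumatic pancreatitis) rats had the pancreas struck and squeezed at 3 cm2 and 10 kg, then saline. TP+hucMSC-Exs rats had the same injury and received, by tail vein, 10 μg per 100 g body weight of exosomes (small secreted vesicles) from human umbilical cord mesenchymal stem cells. Each library was whole tissue, so fewer cells of a type and less RNA per cell cannot be told apart. The labels used here state neither age nor sex.

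Cholecystokinin, acting on the product of Cckar, and acetylcholine, acting on muscarinic receptors, open inositol trisphosphate receptors in the endoplasmic reticulum. The calcium they release triggers exocytosis of zymogen granules, pumps such as SERCA2, the product of Atp2a2, return it to the store, and STIM1 senses the empty store and opens ORAI1 in the plasma membrane. Secretin and vasoactive intestinal peptide act mainly through cyclic AMP. Sustained rather than oscillating calcium is known from experimental pancreatitis, where it accompanies premature activation of trypsinogen inside the acinar cell.

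Promoter sequences are shown for 2 receptors and 2 release channels, because the levels of Chrm3 and Sctr went with acinar genes in the library that differed most while those of Itpr2 did not, and because the levels of Itpr2 and Itpr3 diverged from each other. The RefSeq promoter table (build GRCr8) matched 9 of the 10 names, with no entry for Cckar. Each sequence is the 250 bases before the listed start, and capitals mark CG dinucleotides. The windows are chr17:64696677-64696926 (plus strand) for Chrm3, chr13:33680377-33680626 (plus strand) for Sctr, chr20:5138562-5138811 (plus strand) for Itpr3 and chr4:181134868-181135117 (minus strand) for Itpr2.
Chrm3: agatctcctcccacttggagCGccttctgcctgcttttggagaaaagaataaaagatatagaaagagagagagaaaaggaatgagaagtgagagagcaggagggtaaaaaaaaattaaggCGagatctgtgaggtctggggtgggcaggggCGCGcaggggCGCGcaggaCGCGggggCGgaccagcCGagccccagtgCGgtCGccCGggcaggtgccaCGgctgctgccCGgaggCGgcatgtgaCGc
Sctr: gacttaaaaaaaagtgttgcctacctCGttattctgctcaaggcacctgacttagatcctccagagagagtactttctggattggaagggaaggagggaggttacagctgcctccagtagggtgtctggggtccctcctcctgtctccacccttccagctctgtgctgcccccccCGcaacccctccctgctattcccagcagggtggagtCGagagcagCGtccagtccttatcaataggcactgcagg
Itpr3: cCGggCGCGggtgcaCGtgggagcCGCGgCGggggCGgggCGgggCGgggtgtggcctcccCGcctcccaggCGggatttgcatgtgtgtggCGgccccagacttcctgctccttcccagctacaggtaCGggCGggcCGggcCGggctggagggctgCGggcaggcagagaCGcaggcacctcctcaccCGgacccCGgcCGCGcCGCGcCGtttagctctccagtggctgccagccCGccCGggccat
Itpr2: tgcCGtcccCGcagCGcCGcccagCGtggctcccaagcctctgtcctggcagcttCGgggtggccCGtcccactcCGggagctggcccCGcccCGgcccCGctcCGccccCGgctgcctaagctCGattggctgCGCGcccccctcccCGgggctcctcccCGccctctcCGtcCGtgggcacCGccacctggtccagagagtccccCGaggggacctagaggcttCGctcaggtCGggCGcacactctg

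The numbers of CG dinucleotides ranged widely. The windows of Sctr and Chrm3 had 4 and 17, against 28 in Itpr3, 25 in Itpr2, 24 in Stim1, 33 in Orai1 and 45 in Atp2a2. Chrm1 had 7, while Vipr1, another receptor, had 27. The median over 33469 rat promoters of this length was 5. The E-box CANNTG, a sequence bound by basic helix-loop-helix factors and read alike on both strands, was present in 7 of the 9 windows and in 65.5% of all promoters. Its form CAGCTG, a subset of CANNTG, was present in 1 of the 9, that of Sctr, and in 12% of all promoters.

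TP replicate 2 stood apart from the other 5 libraries, and it touched nearly every comparison of these genes. The median gene tested was at 14.5 TPM there, against 0.92 and 1.68 in the controls, 1.24 in TP replicate 1, 3.21 in TP+hucMSC-Exs replicate 1 and 4 in its replicate 2. Digestive enzyme genes took 21.2% of its TPM and 61.1% to 85.6% in the others. All 8 fat cell markers, 6 of 6 fibroblast markers, 8 of 8 macrophage markers and 6 of 6 endothelial markers were highest in this library, and all 14 acinar markers were lowest there. Of all genes tested, 91.3% were highest in TP replicate 2 and 3.05% were lowest there. Among the 8 tested genes of the pathway, 4 were highest there (Itpr2, Atp2a2, Orai1 and Stim1) and 3 were lowest there (Cckar, Chrm3 and Sctr). Because of such shifts, levels are given in TPM and also as a percentile among the 11477 genes tested in the same library. That set was filtered on a mean that includes TP replicate 2, and the same filter on the other 5 libraries kept 8856 genes. Shares and percentiles over all genes tested thus include genes that passed only through TP replicate 2. Of the 8 tested genes of the pathway, 0 had a mean below 1 TPM without that library. Sequencing depth is unknown, since TPM keeps none.

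**Figure D1:**
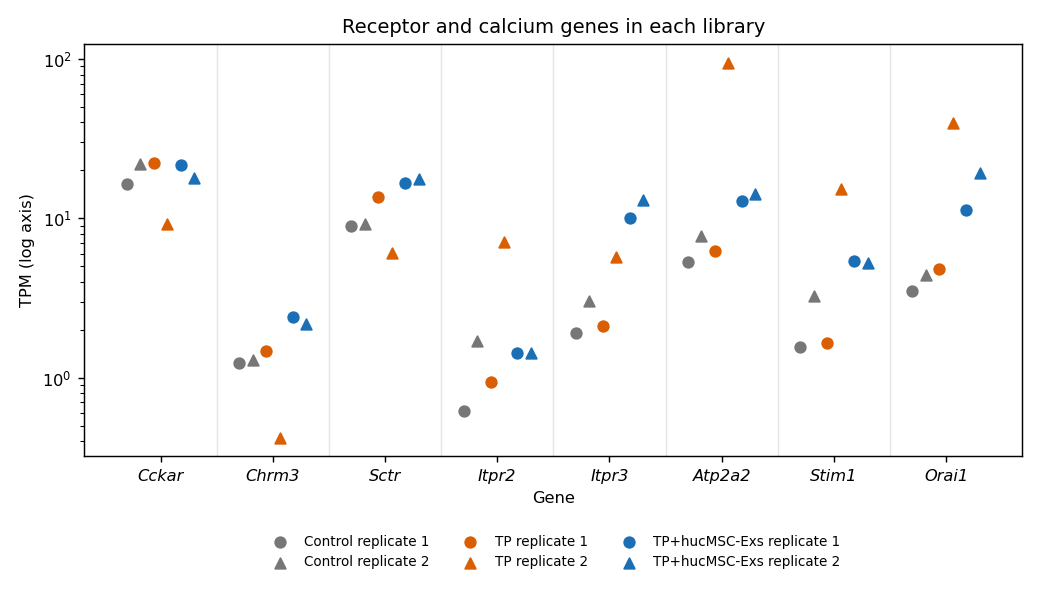
TPM on a log axis for the 8 tested genes in the 6 libraries, with groups by colour and replicates by shape. The receptors Cckar, Chrm3 and Sctr are lowest in TP replicate 2, where Itpr2, Atp2a2, Stim1 and Orai1 are highest, and Itpr3 is highest in both TP+hucMSC-Exs libraries at 10.01 and 12.99 TPM.

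Cckar (ENSRNOG00000043124), the cholecystokinin A receptor, was the most abundant receptor of the set. It stood at 16.3 and 22 TPM in control pancreas, 22.3 and 9.16 TPM after injury alone (TP), and 21.75 and 17.8 TPM after injury and exosomes (TP+hucMSC-Exs, the treated libraries). TP replicate 2 was the low value, and the other 5 libraries overlapped whatever their group. Its rank was far lower in TP replicate 2 than in the other 5: it lay at the 94.6 and 94.4 percentiles in control pancreas, 94.8 in TP replicate 1, 34.5 in TP replicate 2, and 89.6 and 84.9 in the treated libraries.

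Sctr (ENSRNOG00000049766), the secretin receptor of duct and acinar cells, was less abundant than Cckar in all 6 libraries. It stood at 8.89 and 9.18 TPM in control pancreas, 13.6 and 6.10 TPM after injury alone (TP), and 16.6 and 17.75 TPM in the treated libraries. Both treated libraries were above the other 4, and TP replicate 2 was the lowest. The ranks did not follow that order, since Sctr lay at the 91.0 and 87.9 percentiles in the controls and at 86.7 and 84.9 in the treated libraries, with 92.2 and 20.5 in the TP libraries.

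Chrm3 (ENSRNOG00000049410), the muscarinic M3 receptor for acetylcholine, was low throughout. It stood at 1.23 and 1.29 TPM in control pancreas, 1.47 and 0.42 TPM after injury alone (TP), and 2.40 and 2.16 TPM in the treated libraries. As for Sctr, both treated libraries were above the other 4 and TP replicate 2 was lowest. The ranks went the other way, since Chrm3 lay at the 57.6 and 41.5 percentiles in control pancreas and at 40.9 and 30.8 in the treated libraries, with 55.0 and 1.29 in the TP libraries. Chrm1 (ENSRNOG00000018385), the M1 receptor, was listed at 0 in 5 libraries and at 0.03 TPM in TP replicate 2. The other muscarinic genes were no higher: Chrm2 and Chrm5 were listed at 0 in all 6 libraries, and Chrm4 reached at most 0.09 TPM. The ratio of Cckar to Chrm3 was 13.3 and 17.1 in control pancreas, 15.2 and 21.8 after injury alone, and 9.06 and 8.25 in the treated libraries, so the treated libraries had the lowest.

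The acinar transcription factor genes gave values of the same kind beside these receptors. Bhlha15, which encodes the secretory-cell factor MIST1, stood at 29.8 and 34.7 TPM in control pancreas, 36.7 and 12.3 TPM after injury alone (TP), and 37.1 and 28.9 TPM in the treated libraries. Ptf1a, a factor that maintains acinar identity, stood at 13.4 and 16.25 TPM, 23.1 and 9.51 TPM, and 32.55 and 34.5 TPM in the same order. Both were lowest in TP replicate 2, and Ptf1a, like Sctr and Chrm3, was highest in both treated libraries. Only 2 of the 14 acinar markers were, and Ptf1a was chosen after its values were seen. Rbpjl, another acinar transcription factor gene, was highest in TP replicate 1, at 38.1 TPM against 34.85 and 34.9 TPM in the treated libraries. The genes tested whose log2 levels correlated most with those of Cckar over the 6 libraries were Sstr2, an inhibitory somatostatin receptor (Pearson r = 0.992), Bhlha15 (r = 0.984) and Calca, the calcitonin gene (r = 0.975). These correlations describe 6 libraries that share their scaling, and the low value of TP replicate 2 enters all 3.

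Itpr3 (ENSRNOG00000052795), the type 3 inositol trisphosphate receptor, which lies near the apical membrane of acinar cells, showed the clearest step in the treated libraries. It stood at 1.91 and 3.01 TPM in control pancreas, 2.12 and 5.75 TPM after injury alone (TP), and 10.01 and 12.99 TPM after injury and exosomes. Both treated libraries were above the other 4 by more than the range within any group, with means of 11.5 ± 2.11 TPM (SD, n = 2) against 2.46 ± 0.78 in the controls and 3.94 ± 2.57 after injury alone. Its rank moved the same way, from the 68.9 and 67.6 percentiles in the controls and 64.5 and 18.55 in the TP libraries to 78.7 and 79.9 in the treated libraries. On this measure too, both treated libraries were above the other 4.

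Itpr2 (ENSRNOG00000001804), the type 2 receptor, which is also apical in acinar cells, did not show that step. It stood at 0.62 and 1.71 TPM in control pancreas, 0.94 and 7.13 TPM after injury alone (TP), and 1.42 and 1.43 TPM in the treated libraries. Only TP replicate 2 was above the controls, and both treated libraries lay between the control values. Its rank was lowest in the treated libraries, at the 24.5 and 19.1 percentiles, against 39.4 and 50.5 in the controls and 42.4 and 25.5 in the TP libraries.

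The balance between the release channels therefore differed most in the treated libraries, and a ratio within a library does not depend on its scaling. The TPM ratio of Itpr3 to Itpr2 was 3.08 and 1.76 in control pancreas, 2.26 and 0.806 after injury alone, and 7.05 and 9.08 in the treated libraries. The treated libraries were more than 2-fold above every other library. The remaining member of the family, Itpr1, stood at 0.21 to 0.66 TPM in the controls and TP replicate 1, 4.31 TPM in TP replicate 2, and 0.60 and 0.82 TPM in the treated libraries. With 2 libraries against 2, an exact two-sided permutation test of a ratio cannot give a p below 0.333, so none was run.

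**Figure D2:**
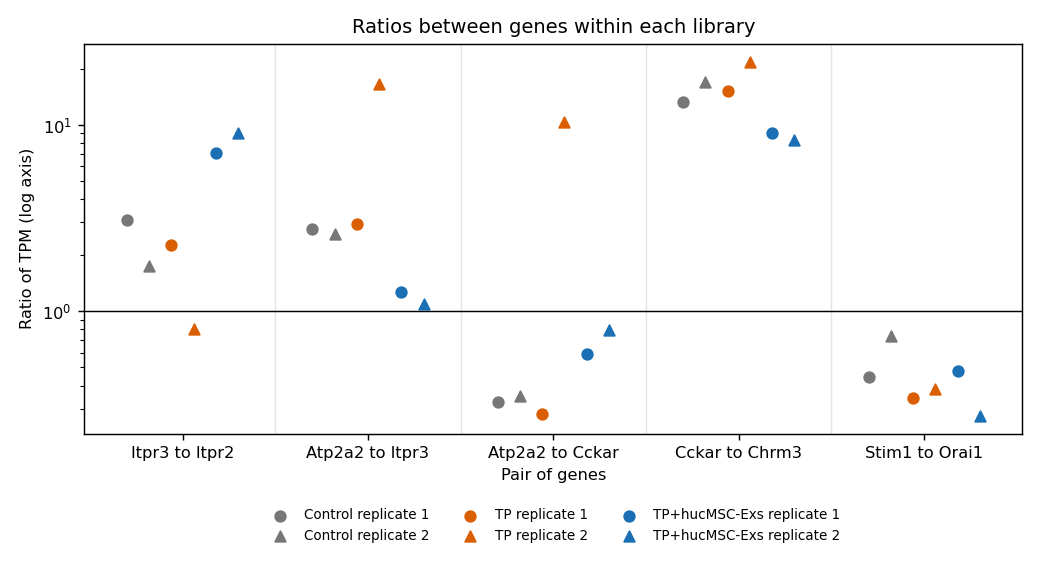
Ratios of TPM between pairs of genes within each of the 6 libraries, on a log axis, with groups by colour, replicates by shape and a line at 1. The ratio of Itpr3 to Itpr2 is 7.05 and 9.08 in the TP+hucMSC-Exs libraries and at most 3.08 elsewhere, while the ratios with Atp2a2 stand out in TP replicate 2.

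Some markers of duct cells, which also use type 3 receptors and the secretin receptor, moved with Itpr3, Sctr and Chrm3. Of 8 duct markers, 4 were above the other 4 libraries in both treated libraries, as 4.65% of all genes tested were. The keratins Krt19 and Krt7 stood at 32.4 and 35.3 TPM and at 14.75 and 23.45 TPM there, against at most 4.68 and 4.99 TPM elsewhere. The chloride channel gene Cftr stood at 0.82 and 0.74 TPM in the treated libraries and at 0.19 to 0.43 TPM in the others. Cftr and Sox9, another of the 4, had means below 1 TPM and were not tested. The summed level of the list was 25.1 and 23.5 TPM in control pancreas, 51.8 and 580 TPM after injury alone (TP), and 173 and 243 TPM in the treated libraries. Spp1, which macrophages also express, gave 558 TPM of it in TP replicate 2 and 88.8 and 149.97 TPM in the treated libraries. None of the 8 was at 0 in any library. Krt19, Krt7 and Cftr were chosen after their values were seen. Muc1, more abundant on average than these, stood at 15.3 and 12.9 TPM in control pancreas and 33.5 and 9.11 TPM after injury alone. In the treated libraries it stood at 31.3 and 28.1 TPM, below TP replicate 1. The part of duct cells in the 3 genes' levels was not tested.

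Atp2a2 (ENSRNOG00000001285), the SERCA2 pump, gave the widest range of the set. It stood at 5.31 and 7.78 TPM in control pancreas, 6.26 and 94.8 TPM after injury alone (TP), and 12.8 and 14.2 TPM in the treated libraries. TP replicate 1 lay between the controls, TP replicate 2 far above all others, and both treated libraries above both controls. Its rank hardly moved, from the 81.6 to the 89.7 percentile over the 6 libraries. The genes tested most correlated with it over the 6 libraries were Pxdn, an extracellular matrix peroxidase, Rbsn, an endosomal trafficking gene, and Tmx4 (Pearson r = 0.9998, 0.9996 and 0.9996). Each of them was also highest in TP replicate 2, and that high value enters each correlation. For Itpr3 the most correlated genes were Phldb3, Pabpc4, a poly(A)-binding protein, and Herc6 (r = 0.998 for each).

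Relative to its partners, the pump stood apart in TP replicate 2. The ratio of Atp2a2 to Cckar was 0.325 and 0.354 in control pancreas, 0.280 and 10.4 after injury alone, and 0.587 and 0.798 in the treated libraries. The ratio of Atp2a2 to Itpr3 was 2.78 and 2.58 in control pancreas, 2.95 and 16.5 after injury alone, and 1.28 and 1.09 in the treated libraries. The treated libraries thus held the lowest level of pump transcript per transcript of the type 3 channel. SERCA2 is made by most cell types, and summed fat cell markers stood at 4536 TPM in TP replicate 2 against 22.5 to 43.95 TPM elsewhere, fibroblast markers at 4389 against 30.5 to 149.9 TPM, and macrophage markers at 4659 against 18.2 to 759 TPM. The part of these cells in the level of Atp2a2 was not tested.

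Orai1 (ENSRNOG00000001336) encodes the channel of store-operated calcium entry. Both TP libraries were above both controls for Orai1 alone among the 8 genes, and for 23.1% of all genes tested. Orai1 stood at 3.50 and 4.4 TPM in control pancreas, 4.81 and 39.9 TPM after injury alone (TP), and 11.35 and 19.2 TPM in the treated libraries. TP replicate 1 was closer to the higher control than the controls were to each other. The percentile of Orai1 was 80.5 and 76.6 in control pancreas, 80.9 and 77.9 after injury alone, and 81.1 and 85.8 in the treated libraries.

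Stim1 (ENSRNOG00000020425), the calcium sensor of the endoplasmic reticulum that opens ORAI1, stood at 1.56 and 3.25 TPM in control pancreas, 1.65 and 15.3 TPM after injury alone (TP), and 5.41 and 5.27 TPM in the treated libraries. The treated libraries were above both controls and below TP replicate 2. In rank they overlapped the controls, at the 64.4 and 58.1 percentiles against 64.2 and 69.5, with 58.1 and 51.5 in the TP libraries. The ratio of Stim1 to Orai1 was 0.446 and 0.739 in control pancreas, 0.343 and 0.383 after injury alone, and 0.477 and 0.275 in the treated libraries, so that the treated range overlapped both others, and both TP ratios were below both controls. The higher control value of Stim1, as of every other tested gene of the set, was in control replicate 2. The median gene was also higher there, at 1.68 TPM against 0.92 TPM in control replicate 1. In control replicate 2, 6 of 8 lymphocyte markers were highest of all libraries. Their sum was 46.6 TPM there and 0.09 TPM in control replicate 1, where 7 of the 8, Cd3e among them, were at 0. The part of lymphocytes in these levels was not tested.

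**Figure D3:**
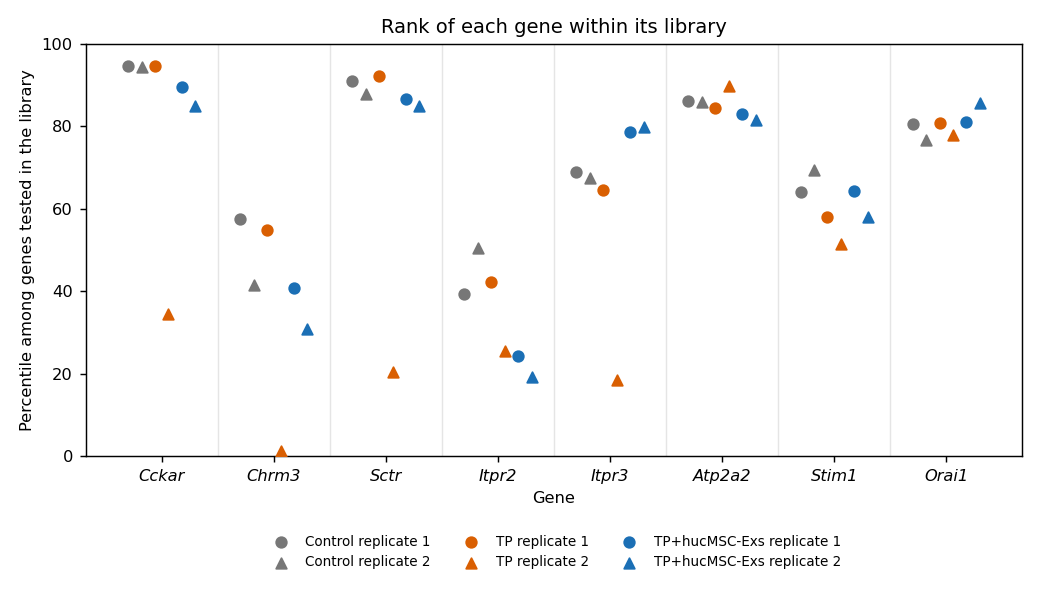
Percentile of each of the 8 tested genes among the 11477 genes tested in the same library, for the 6 libraries, with groups by colour and replicates by shape. Cckar, Chrm3, Sctr and Itpr3 rank far lower in TP replicate 2, Atp2a2 and Orai1 keep similar ranks in all libraries, and Itpr3 ranks highest in the TP+hucMSC-Exs libraries.

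Injured pancreas was first set against control pancreas, to ask what the injury changed, and none of the 8 genes passed the test. Fold changes were taken between values of log2(TPM + 0.5), a scale that understates those of low genes. They come with a standard error (SE) from limma fitted over all genes with n = 2 libraries a group. In this fit limma gave a gene's own spread no weight, so each SE is the value typical of all genes at that mean level. A gene with close replicates therefore has much the same SE as one without. The receptors had values of -0.39 ± 1.40 for Cckar, -0.39 ± 1.46 for Chrm3 and 0.02 ± 1.42 for Sctr. The other 5 genes were positive, from 0.48 ± 1.43 for Itpr3 to 1.73 ± 1.42 for Orai1 and 1.87 ± 1.41 for Atp2a2. The median of the 8 was 0.77, beside 1.5 over all genes tested. At an adjusted p below 0.05, 0 of 8 were called, and 0 had an unadjusted p below 0.05; over all genes 0.0523% were called higher and 0% lower. The lowest adjusted p among them was 0.555. Both TP libraries were above both controls for 1 of the 8, Orai1, and below for 0, against 23.1% and 1.09% of all genes.

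These values rested on TP replicate 2. Without it every one of the 8 lay within 0.57 of zero, from -0.37 for Stim1 to 0.57 for Sctr, and 0 were called. Without TP replicate 1 the same fit called 6 of the 8: Itpr2, Atp2a2, Orai1 and Stim1 higher, with Atp2a2 at 3.78 (adjusted p = 0.000958), and Cckar (-1.01, adjusted p = 0.0385) and Chrm3 (-0.94, adjusted p = 0.0313) lower. That fit called 91.5% of all genes higher and 1.73% lower, and TP replicate 2 was then the only TP library, assumed to vary as the other groups do.

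TP+hucMSC-Exs was next set against TP, to ask what exosome treatment changed after injury. Itpr3 had the highest fold change of the set, 1.56 ± 1.43 (adjusted p = 1), followed by Chrm3 with 1.04 ± 1.46, Sctr with 0.87 ± 1.42 and Cckar with 0.44 ± 1.40. Orai1 and Stim1 were at 0.06 ± 1.42 and 0.00 ± 1.43, and Itpr2 and Atp2a2 at -0.78 ± 1.45 and -0.86 ± 1.41. The median of the 8 was 0.25, beside -0.38 over all genes tested. With limma 0 of 8 were called, and 0 had an unadjusted p below 0.05; over all genes 0.0523% were called higher and 0.0174% lower. Both treated libraries were above both TP libraries for 3 of the 8 (Chrm3, Sctr and Itpr3) and below for 0, against 5.09% and 1.62% of all genes. The same 3 were above the controls as well, so both treated libraries exceeded the other 4, which 4.65% of all genes did.

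Here the direction depended on which TP library was kept, except for the receptors Chrm3 and Sctr and for Itpr3. Each of these fits has 1 TP library, assumed to vary as the other groups do. Without TP replicate 2 limma called Itpr3 (2.18, adjusted p = 0.0153), Orai1 (1.52, adjusted p = 0.0330) and Stim1 (1.44, adjusted p = 0.0439) higher, 3 of the 8, beside 40.1% of all genes called higher and 0.587% lower. Without TP replicate 1 it called 7 of the 8, Cckar, Chrm3 and Sctr higher and Itpr2, Atp2a2, Orai1 and Stim1 lower, beside 3.66% and 79.7% of all genes. On the scale of median-of-ratios without TP replicate 2, chosen after seeing the data, Itpr3 stayed positive at 0.87 (adjusted p = 0.103), while Chrm3 was at -0.63, Sctr at -1.08 and Cckar at -1.59, and 0 of the 8 were called. Median-of-ratios scaling sets the typical gene to the same level in every library.

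**Figure D4:**
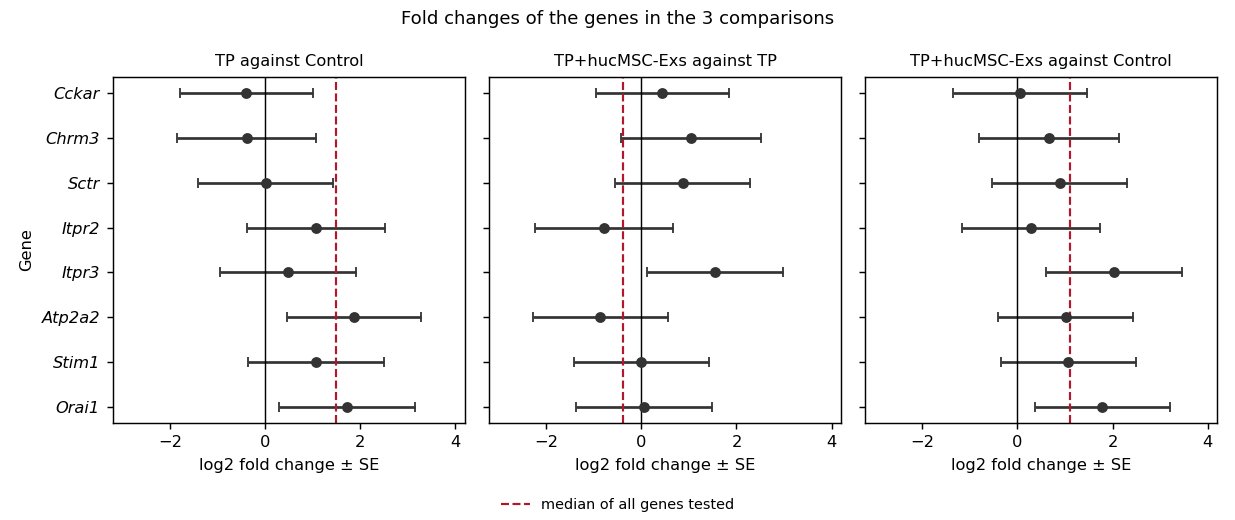
Log2 fold change with its SE for the 8 tested genes in the 3 comparisons, from limma over all 6 libraries, with the median of all genes tested as a dashed line. Every gene's value lies within 1.5 SE of zero, and Itpr3 lies above the dashed line in both comparisons of the TP+hucMSC-Exs group.

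Last, TP+hucMSC-Exs was set against Control, to ask how injured, treated pancreas compared with pancreas that was only handled. All 8 fold changes were positive, from 0.05 ± 1.40 for Cckar to 1.79 ± 1.42 for Orai1 and 2.03 ± 1.43 for Itpr3, with Chrm3 at 0.66, Sctr at 0.89, Atp2a2 at 1.01, Stim1 at 1.07 and Itpr2 at 0.29. So were 94.6% of all genes, and the median of the 8 was 0.95 beside 1.09 over all genes tested. With limma 0 of 8 were called, with the lowest adjusted p at 0.80, and 0 had an unadjusted p below 0.05; over all genes 0.209% were called higher and 0% lower. Both treated libraries were above both controls for 6 of the 8, all but Cckar and Itpr2, and below for 0, against 86.9% and 1.63% of all genes.

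A fit of only these 2 groups, in which the spread between the TP libraries has no part, called 5 of the 8 higher. They were Itpr3 (2.03, adjusted p = 0.000272), Orai1 (1.79, adjusted p = 0.000761), Atp2a2 (1.01, adjusted p = 0.0194), Stim1 (1.07, adjusted p = 0.0228) and Sctr (0.89, adjusted p = 0.0284). The same fit called 70.1% of all genes higher and 0.9% lower, so a count of 5 in 8 was near the share over all genes. Rescaled by median-of-ratios and fitted without TP replicate 2, 0 of the 8 were called, while 5.06% of all genes were higher and 2% lower. Itpr3 and Orai1 were then still positive, at 0.71 (adjusted p = 0.0584) and 0.41 (adjusted p = 0.340), and the other 6 were negative, down to -1.37 for Cckar (adjusted p = 0.0674).

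**Figure D5:**
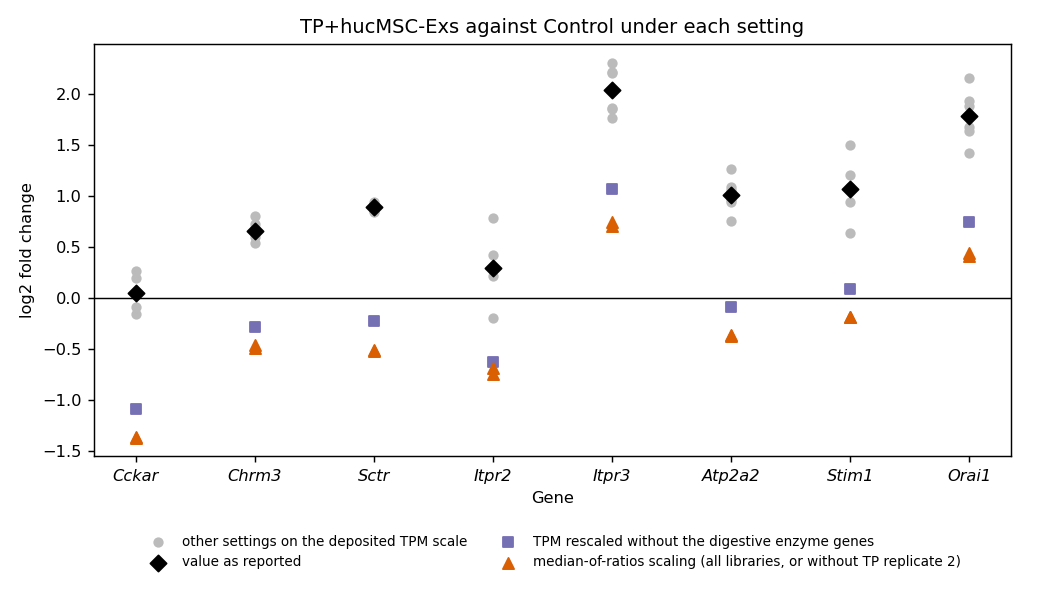
Log2 fold change of TP+hucMSC-Exs against Control for the 8 tested genes under each setting: black diamonds are the values reported, grey points other settings on the deposited TPM scale, and coloured symbols other scalings. Itpr3 and Orai1 are above zero under every setting, and Chrm3, Sctr, Itpr2, Atp2a2 and Cckar turn negative under every rescaling, as Stim1 does under median-of-ratios.

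Other genes of the pathway, 106 in 9 lists, had 103 in the table and 72 tested, and 0 were called in any of the 3 comparisons with limma. At an unadjusted p below 0.05 there were 6, 0 and 0. Of the 72, 13 had a mean under 1 TPM without TP replicate 2 and were tested because of that library, so their values cannot stand for the lists. Most, 65 of 72, were highest in TP replicate 2, as were 91.3% of all genes tested. Both treated libraries were above both TP libraries for 3 of the 72, or 4.17% beside 5.09% of all genes. These were Trpm4, a calcium-activated cation channel, Ano1, the calcium-gated chloride channel of the apical membrane, and Kcnq1, a potassium channel. They were chosen after their values were seen.

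The other secretagogue and purinergic receptors were mostly at the limit of the table, with 3 of 13 tested. P2rx4, an ATP-gated channel, was the most abundant, at 4.27 and 4.99 TPM in control pancreas, 3.65 and 44.4 TPM after injury alone (TP), and 8.85 and 12.2 TPM in the treated libraries. P2ry2, a nucleotide receptor that raises calcium, stood at 0.18 and 0.38 TPM, 0.52 and 29.8 TPM, and 3.14 and 5.13 TPM. It was above both controls in all 4 injured libraries. Both TP libraries were above both controls for 23.1% of all genes tested, and both treated libraries for 86.9%. Sstr2 stood at 1.48 and 2.40 TPM, 2.38 and 0.64 TPM, and 2.63 and 1.85 TPM. Cckbr, the other cholecystokinin receptor, was listed at 0 in 5 libraries and at 0.10 TPM in control replicate 2.

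G proteins, phospholipase C and cyclic AMP enzymes, which carry the receptor signal, had 12 of 16 tested. The most abundant were Gnas, the stimulatory G protein (8.59 and 11.2 TPM in control pancreas, 9.55 and 112.6 in TP, 20.7 and 22.1 treated) and Gna11 (4.87 and 5.80, 5.82 and 41.1, 12.9 and 13.6 TPM). Stim2, the sensor related to Stim1, stood at 2.45 and 3.82 TPM in control pancreas, 6.60 and 22 TPM after injury alone (TP), and 13.7 and 16.6 TPM in the treated libraries. All 4 injured libraries were thus above both controls. Of all genes tested, 23.1% had both TP libraries above both controls, and 86.9% had both treated libraries above them. Saraf, which limits store-operated entry, was the most abundant entry gene at 25.0 and 33.4 TPM, 29.75 and 75.8 TPM, and 48.4 and 52.8 TPM.

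The calcium-binding proteins of the endoplasmic reticulum had 10 of 10 tested. Hspa5, a chaperone of that compartment, stood at 60.6 and 73.95 TPM in control pancreas, 70.6 and 605 TPM after injury alone (TP), and 125.6 and 128.7 TPM in the treated libraries. Calr, the store protein calreticulin, stood at 42.7 and 57.3 TPM, 74.3 and 1387 TPM, and 158 and 186 TPM. All 10 of this list were highest in TP replicate 2, as were 91.3% of all genes tested. The same held for all 9 of mitochondrial calcium uptake and all 16 of calmodulin, calcineurin and protein kinase C. Those 2 lists include genes too low to be tested, Micu3 in the first and Nfatc2 and Prkce in the second.

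In the list of fluid secretion channels, 3 of 10 were highest in TP replicate 2 and 5 were lowest there, beside 91.3% and 3.05% of all genes tested. Aqp12a, a pancreatic aquaporin, did not pass the test, although its TPM did not overlap between the controls and either injured group. It stood at 204 and 193 TPM in control pancreas, 182 and 49.3 TPM after injury alone (TP), and 147 and 149.9 TPM in the treated libraries. Both TP libraries were below both controls for 1.09% of all genes tested, and both treated libraries for 1.63%. Kcnq1 stood at 6.38 and 6.81 TPM, 11.3 and 5.34 TPM, and 21.7 and 22.8 TPM, and its subunit Kcne1 at 53.2 and 45.0 TPM, 72.2 and 20.2 TPM, and 52.4 and 53.5 TPM. Ano1 stood at 2.95 and 3.54 TPM, 4.08 and 4.22 TPM, and 7.42 and 7.97 TPM. Like Sctr, Chrm3 and Itpr3, Ano1 and Kcnq1 were above the other 4 libraries in both treated libraries, as 4.65% of all genes tested were.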

How the data were processed

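Gene levels were taken from a table of TPM that the authors deposited, with 1 column for each of 6 libraries and 34001 genes; all columns have the same total, so depth is lost and counting error is unknown. Per the labels' protocols, RNA was column-purified and libraries were made with a SMARTer mRNA kit. No source used here names the aligner, the counting program or the annotation. Per the submitters' processing notes the builds are those of mouse, while the gene identifiers are rat Ensembl ones. The authors' group means and gene lengths entered no test, and the column names of the TP libraries hold a number that no label explains. Groups follow the sample titles, and the series describes separate rats.

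The 11477 genes with a mean of at least 1 TPM were fitted on log2(TPM + 0.5) with limma 3.58.1 in R 4.3.3, as 1 model over 3 groups with a variance trend and residual degrees of freedom of 3. Benjamini-Hochberg adjustment ran over all genes tested, with a threshold of 0.05. Their spread is pooled over all groups, and of the 3 groups the TP libraries correlate least with each other (r = 0.712, against 0.939 and 0.968 in the other groups). TP replicate 1 correlated at 0.954 and 0.930 with control replicates 1 and 2, and TP replicate 2 at 0.679 and 0.727. The script was tested on simulated data. The genes followed and the lists were chosen with earlier results of these data known. Named genes are those 10, the most abundant of each list (3, or 2 for cell markers), any called, and the 3 most correlated with Cckar, Itpr3 and Atp2a2; others that are named were chosen after their values were seen, and not every gene that this rule names is printed. Alternatives were other pseudocounts, filters, scalings and sample sets, a replicate block, and leaving out each library.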

Additional observations from a re-analysis of the deposited data

How the results depend on the processing

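No counting error is known for TPM, and 2 libraries a group leave 3 residual degrees of freedom. In the fit as reported the prior degrees of freedom were infinite. Each SE and p there came from the variance trend over all genes, not from the gene's own scatter. Over 378 results of the 8 genes under alternatives, 298 kept direction and side of the threshold, 28 kept direction and passed it, and 52 reversed, among them Orai1 and Stim1 without TP replicate 1, which also passed it. Itpr3 in both comparisons of TP+hucMSC-Exs, and Orai1 in both comparisons with Control, kept their direction in every alternative run. The cause of the other changes was not tested.

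Genes called, in the order TP against Control, TP+hucMSC-Exs against TP, TP+hucMSC-Exs against Control, were 6, 8 and 24 as reported. Pseudocount 0.1 gave 14 in the first, and pseudocount 1 gave 12 in the last and -0.051 for Stim1 against TP. Without the filter they were 0, 0 and 0. With only the 2 groups compared they were 0, 1 and 6550, and in the last 5 of the 8 genes and 49 other pathway genes were called. The groups share replicate numbers that no label calls pairs, and deviations of same-numbered libraries correlated at 0.279, 0.0804 and 0.135; a replicate block gave 10 and 22 genes called in the first and second comparison and called none of the 8.

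TPM rescaled without digestive enzyme genes gave 2, 0 and 3 genes called. It reversed Sctr (-1.27), Itpr3 (-0.75) and Stim1 (-0.16) in TP against Control, and Cckar (-1.09), Chrm3 (-0.28), Sctr (-0.23), Itpr2 (-0.63) and Atp2a2 (-0.085) in TP+hucMSC-Exs against Control. Median-of-ratios scaling gave 0, 1 and 1. It reversed Sctr (-1.48), Itpr2 (-0.32), Itpr3 (-0.98) and Stim1 (-0.51) in the first comparison, and Cckar (-1.36), Chrm3 (-0.49), Sctr (-0.51), Itpr2 (-0.74), Atp2a2 (-0.37) and Stim1 (-0.18) in the last. The same scaling without TP replicate 2, chosen after seeing the data, gave 0, 54 and 586 genes and 4 pathway genes in the last. In TP against Control it gave Cckar 0.22, Chrm3 0.16, Itpr2 -0.11, Itpr3 -0.16, Atp2a2 -0.047 and Stim1 -0.39. In TP+hucMSC-Exs against TP it gave Cckar -1.59, Chrm3 -0.63 and Sctr -1.08, and against Control Cckar -1.37, Chrm3 -0.46, Sctr -0.52, Itpr2 -0.69, Atp2a2 -0.37 and Stim1 -0.19.

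Leaving out each library in turn gave 0 to 11064, 0 to 9893 and 1 to 6135 genes called. Of the 8 genes 0 to 6, 0 to 7 and 0 to 5 were called, and of other pathway genes 0 to 69, 0 to 67 and 0 to 46, all above 0 only without a TP library. In TP against Control the ranges that crossed zero were Cckar -1.01 to 0.23, Chrm3 -0.94 to 0.16, Sctr -0.53 to 0.57, Itpr2 -0.13 to 2.28, Itpr3 -0.15 to 1.10, Atp2a2 -0.037 to 3.78 and Stim1 -0.37 to 2.5. In TP+hucMSC-Exs against TP they were Cckar -0.18 to 1.06, Itpr2 -1.99 to 0.42, Atp2a2 -2.77 to 1.05, Orai1 -1.40 to 1.52 and Stim1 -1.43 to 1.44, and against Control Cckar -0.16 to 0.26 and Itpr2 -0.20 to 0.78.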
